A study of Canis lupus familiaris with 34 samples.

Results

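Of 34 primary canine cutaneous mast cell tumours (MCTs), the 11 that expressed 5 mast cell genes most strongly were compared with the 11 that expressed them least, 22 of 34 tumours in all. Each tumour was scored by the mean of its z-scores, that is, its distances from the mean of the 34 MCTs in units of their SD, for CPA3, CMA1, MS4A2, GATA2 and KIT. The Transcript cluster (the array's unit for a gene) with the highest mean represented each gene. The tumours at the top are called mast cell gene high MCTs and those at the bottom mast cell gene low MCTs, and the other 12 lay between. The tumours were thus selected on the measured levels of these 5 genes, which are described without a test between the groups. Every difference tested between the groups concerns other genes or whole arrays. The score and the groups were also tested against metastatic status, a label that did not choose the tumours.

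The MCTs came from the skin of pet dogs of several breeds, 1 tumour a dog, and were stored as formalin-fixed, paraffin-embedded (FFPE) diagnostic tissue. Such tissue holds mast cells beside epidermis, stroma, vessels and infiltrating leukocytes in shares that the deposited values do not give. M marks metastasising MCTs, of dogs that died of metastatic disease, and NM marks non-metastasising MCTs, of dogs that had no adjuvant therapy and survived long after surgery. Each group held 5 M and 6 NM MCTs, and the labels give no treatment and no allele, that of KIT included, for any tumour. Expression is given on the log2 scale, where a difference of 1 is a 2-fold change, and the median of all values in the table, 1.84, marks a low signal.

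Mast cells are granulated cells of the skin and mucosae. They grow under the stem cell factor receptor encoded by KIT, carry the high-affinity IgE receptor, and store proteases, histamine and heparin in granules that they release when that receptor is cross-linked. They also make prostaglandins and leukotrienes from arachidonic acid. Neoplastic mast cells of canine skin tumours keep these features to unequal degrees.

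The scores ran from 2.44 in M7 to 0.207 in NM15 in the high group and from -0.588 in M3 to -1.05 in NM1 in the low group. Just outside the limits lay M13 at 0.0707 and NM10 at -0.56. CPA3, carboxypeptidase A3 of the granule, lay at 1.71, 2.12 and 3.44 (lowest, median and highest) in the low MCTs and at 2.84, 6.16 and 8.46 in the high MCTs. CMA1, the chymase, lay at 1.88, 2.51 and 3.16 in the low and at 3.41, 5.61 and 7.61 in the high MCTs. These values follow from the choice of tumours.

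MS4A2, the β chain of the IgE receptor, lay at 1.65, 1.92 and 2.29 in the low MCTs and at 2.71, 3.80 and 6.71 in the high MCTs. GATA2, a transcription factor of the lineage, lay at 2.52, 3.04 and 3.58 against 4.33, 5.04 and 6.92. KIT lay at 1.73, 2.18 and 2.61 against 2.96, 4.10 and 5.46. The groups overlapped for CPA3 alone, and in the low MCTs CPA3 and MS4A2 were each at or below the median of the table in 3 of 11 tumours and KIT in 1. In the low MCTs the medians of CPA3, MS4A2 and KIT lay below the 75th percentile of all values, 2.50. In biopsies fewer mast cells and less of these RNAs per mast cell cannot be told apart. Over the 34 MCTs the 5 genes correlated with each other at r between 0.802 and 0.928, values from the same arrays.

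The arrays of the groups also differed as wholes. The median correlation of an array with the other arrays, over all clusters tested, lay at 0.73, 0.798 and 0.885 in the low MCTs and at 0.835, 0.863 and 0.877 in the high MCTs. It averaged 0.801 ± 0.0501 (SD, n = 11) and 0.863 ± 0.0131 (SD, n = 11), a difference of 0.0615 (two-sided permutation test, p = 0.00113), and 8 of the 11 low MCTs lay below every high MCT. The lowest were M1, M15, NM3 and NM7. The percentage of clusters above the median of the table did not separate the groups, at 79 ± 2.84 (SD, n = 11) and 79.5 ± 1.46 (SD, n = 11; two-sided permutation test, p = 0.649). The deposited values were quantile normalised, with array medians between 1.785 and 1.905. This left the percentage little room to differ, so it says little about array quality. No batch of arrays is named in the labels.

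**Figure D1:**
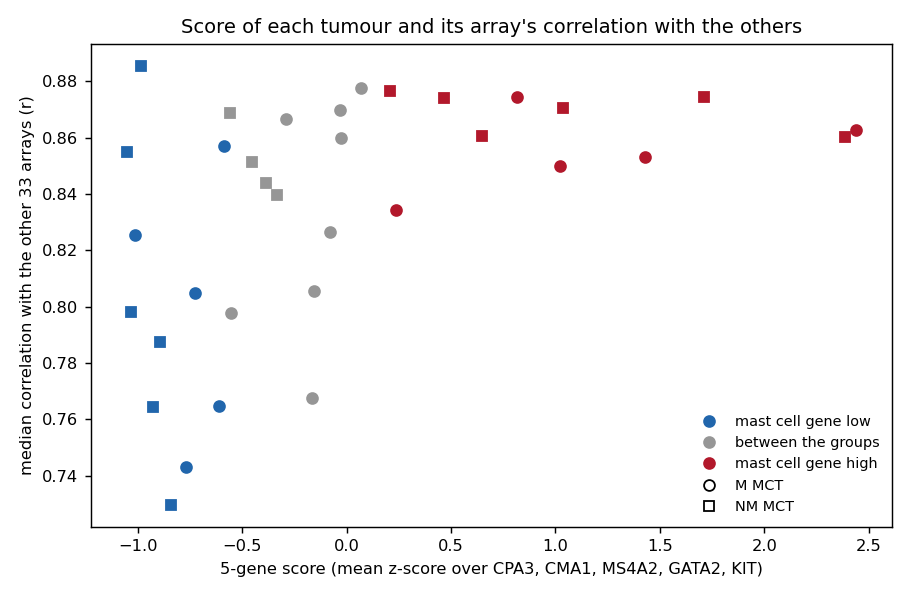
Score of each of the 34 MCTs (horizontal axis, mean z-score of 5 genes) against the median correlation r of its array with the other arrays (vertical axis); circles are M and squares NM MCTs, coloured by group. The 11 high MCTs lie between 0.835 and 0.877, the 11 low MCTs between 0.73 and 0.885.

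Outside the 5 genes, mast cell gene high MCTs expressed more of the IgE receptor α chain gene FCER1A, of the histamine-forming enzyme gene HDC, of the prostaglandin genes PTGS1 and HPGD, of the heparin-modifying enzyme gene NDST2 and of a pair of unnamed neighbouring loci, LOC100049001 and LOC448801. In limma with Benjamini-Hochberg adjustment, 552 of 19241 clusters were called higher in the high MCTs (2.87%) and 30 lower (0.156%), where called means an adjusted p under 0.05. Counted once per gene with 1 symbol, 272 of 10466 genes were higher (2.6%) and 8 lower (0.0764%). Counts of called list members below are to be read beside these shares. At least 1 unit on the log2 scale separated the groups for 355 of the clusters called higher and for 2 of those called lower. The median difference over all clusters was -0.02.

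The split between directions depended on scaling, since repeating quantile normalisation on the tested clusters gave 425 higher and 209 lower. It also moved with the array measure. With each array's median correlation as a covariate 3 clusters were called higher and 0 lower, without M1, M15, NM3 and NM7 the counts were 10 and 0, and with only the 3 low MCTs that were not below the lowest high MCT (M3, NM1 and NM5) they were 2 and 0. NM5, at 0.885, lay above every high MCT. The fit with a covariate keeps all 22 arrays, and differences marked below as given with the covariate come from it. The covariate was computed from these same values and differed between the groups, so this fit estimates the difference less precisely. The fit with 3 low MCTs is less precise through its few arrays. A call lost in these fits is thus not by itself a smaller difference, and has to be read beside the difference given.

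Full separation of the groups was rare. In 14 of 19241 clusters (0.0728%) every high MCT exceeded every low MCT, in 0 was it the reverse, and of genes with 1 symbol 10 separated the groups (0.0955%). Of the 15 genes named by rule, those called with at least 1 unit of difference and the smallest p, 6 had groups without overlap, and for all 15 the median of the 12 MCTs between lay between the group medians. The spread was larger in the high than in the low MCTs for 13 of the 15.

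LOC100049001 had the smallest p of all. It lay at 1.88, 3.25 and 4.75 in the low MCTs and at 6.10, 7.17 and 9.11 in the high MCTs, with the tumours between at 4.02, 5.90 and 7.502. Every high MCT exceeded every low MCT, and all 12 intermediate MCTs exceeded the low median. The difference was 4.28 (SE 0.365, n = 11 per group, adjusted p = 8.76e-07), or 19.5-fold.

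LOC448801 lay at 2.78, 4.72 and 7.004 in the low MCTs and at 8, 9.22 and 10.7 in the high MCTs. The groups again did not overlap, with M9 the highest of the low MCTs and NM15 the lowest of the high. The difference was 4.49 (SE 0.48, n = 11 per group, adjusted p = 3.1e-05), or 22.5-fold. Both loci are annotated as protein-coding, and on another dog assembly they lie near each other with 3 genes between them. The annotation used here gives the loci no name and none is given to them here. Whether the probes of one also bind the RNA of the other was not tested.

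Both loci kept their differences when array measures were taken into account. LOC100049001 differed by 4.24 with the median correlation as a covariate (adjusted p = 0.000435), by 4.04 against those 3 low MCTs and by 4.62 with the level of ribosomal protein genes as a covariate. LOC448801 differed by 4.47 (adjusted p = 0.00373), 4.48 and 5.12 in the same fits. Both were called in each of these fits and also within M MCTs alone (3.81 and 3.70) and within NM MCTs alone (4.68 and 5.15). They were the 2 named genes called with the median correlation as a covariate.

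**Figure D2:**
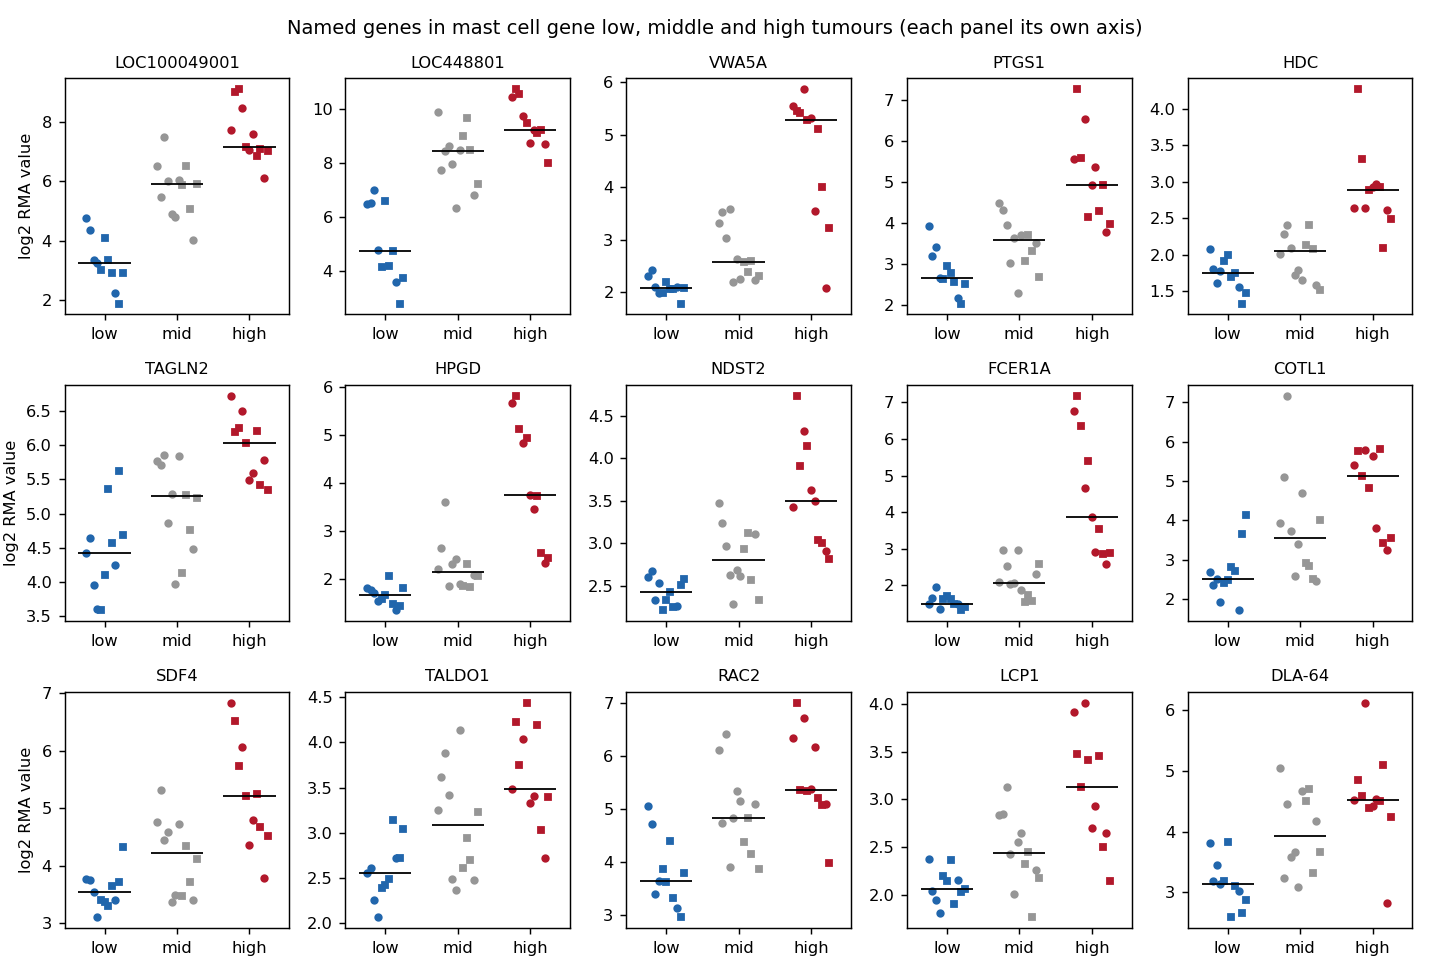
Log2 values of the 15 genes named by rule in the 11 low, 12 intermediate and 11 high MCTs; each point is a tumour (circles M, squares NM), horizontal lines are medians and each panel has its own vertical axis. LOC100049001, LOC448801, HDC, HPGD, NDST2 and FCER1A have no low MCT above any high MCT.

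Granule contents other than the 5 genes were higher in part. Of 6 tested members of the list of granule proteases and serglycin, 2 rose and 0 fell, with a median difference of 0.68 beside -0.02 over all clusters. SRGN, which encodes the proteoglycan core serglycin to which proteases and histamine bind in the granule, lay at 1.94, 2.11 and 2.33 in the low and at 2.26, 3.16 and 5.13 in the high MCTs. Of the 11 high MCTs, 10 exceeded every low MCT, and the difference was 1.13 (adjusted p = 0.0206). CTSD, the lysosomal protease cathepsin D, rose by 1.42 (adjusted p = 0.0206). CTSB, cathepsin B, differed by 1.42 and CTSG, cathepsin G, by -0.26, neither of them called (adjusted p = 0.0515 and 0.217). SRGN and CTSD differed by 1.20 and 1.03 when the median correlation was a covariate, neither called. Tryptases have no cluster under their human symbols in the annotation used here.

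Heparin is made on serglycin by a chain of transferases. Of the 20 tested members of the glycosaminoglycan list 3 rose and 0 fell, beside 2.6% higher among all genes with 1 symbol. The median difference of the list was 0.10. NDST2, the N-deacetylase and N-sulphotransferase that mouse mast cells need for heparin, lay at 2.21, 2.42 and 2.67 in the low and at 2.82, 3.49 and 4.74 in the high MCTs. No low MCT reached a high MCT, and the difference was 1.16 (SE 0.191, n = 11 per group, adjusted p = 0.00419). HS6ST1, a 6-O-sulphotransferase, rose by 0.98 and EXTL3, which acts early in chain synthesis, by 0.66 (adjusted p = 0.00974 and 0.0252). NDST2, HS6ST1 and EXTL3 differed by 1.16, 1.10 and 0.63 once the median correlation was a covariate, none called. RAB27B, a small GTPase of granule secretion, rose by 0.64 (adjusted p = 0.0285), the 1 called member of 17 tested genes of lysosomes and acid granules. It was at or below the median of the table in 8 low and 4 high MCTs. Its call held in 16 of 22 refits without 1 tumour and was lost with the covariate. EXTL3 and RAB27B reached the level required for testing only through the high MCTs. Their calls are therefore no independent support, neither alone nor within the counts of their lists.

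HDC, histidine decarboxylase, forms histamine. It lay at 1.33, 1.74 and 2.07 in the low MCTs, where 8 of 11 were at or below the median of the table, and at 2.09, 2.88 and 4.27 in the high MCTs, where none was. The groups did not overlap and the difference was 1.16 (SE 0.175, n = 11 per group, adjusted p = 0.00138). SLC18A2, the vesicular transporter that loads monoamines such as histamine into granules, rose from 1.99, 2.35 and 2.95 to 2.91, 3.49 and 5.38, a difference of 1.21 (adjusted p = 0.00941). Only M3 among the low MCTs exceeded the lowest high MCTs. The other 3 of 5 tested members of the histamine list were not called. Adding the median correlation as a covariate left HDC at 1.21 and SLC18A2 at 1.18, without a call (adjusted p = 0.0874 and 0.532).

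Among 10 tested eicosanoid genes 2 rose and 0 fell, with a median difference of 0.36. PTGS1, cyclooxygenase-1, which makes the precursor of prostaglandins, lay at 2.03, 2.65 and 3.93 in the low and at 3.79, 4.92 and 7.26 in the high MCTs. All but M17 of the high MCTs exceeded every low MCT, and the difference was 2.32 (SE 0.349, n = 11 per group, adjusted p = 0.00138). HPGD, the dehydrogenase that inactivates prostaglandins, lay at 1.35, 1.66 and 2.06 against 2.34, 3.75 and 5.81, without overlap. It was at or below the median of the table in 10 of 11 low MCTs, and its difference was 2.40 (SE 0.373, n = 11 per group, adjusted p = 0.00189). PTGS1 and HPGD stood at 2.26 and 2.40 with the covariate, each with an adjusted p of 0.158. LTC4S and ALOX5, of leukotriene synthesis, differed by 1.02 and 0.47, neither called (adjusted p = 0.157 and 0.21).

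The IgE receptor and its signalling chain had 5 of 16 tested members higher and 0 lower, with a median difference of 0.52 and a positive difference in 15. FCER1A, the IgE-binding α chain, lay at 1.31, 1.499 and 1.96 in the low MCTs, 10 of them at or below the median of the table, and at 2.58, 3.86 and 7.18 in the high MCTs. The groups did not overlap, the difference was 2.90 (SE 0.492, n = 11 per group, adjusted p = 0.0049), and the highest values were in NM12 and M7. The high MCTs spread widely (SD 1.71, n = 11) and the low MCTs narrowly (SD 0.183, n = 11).

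Downstream of the receptor, LCP2, the adaptor SLP-76, rose by 1.33 and RASGRP4, a Ras activator of mast cells, by 0.89 (adjusted p = 0.0212 and 0.0252). INPP5D, the inhibitory lipid phosphatase SHIP1, rose by 0.88 and STXBP2, which serves granule exocytosis, by 0.51 (adjusted p = 0.0167 and 0.0203). SYK, a kinase of the same signalling chain, differed by 0.25 and was not called (adjusted p = 0.308). FCER1A differed by 2.88, LCP2 by 1.37, RASGRP4 by 0.90, INPP5D by 0.75 and STXBP2 by 0.40 with the median correlation as a covariate, none called. The median of the list was then 0.44.

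KIT itself chose the tumours. Of 15 other tested members of its pathway 2 rose and 0 fell, beside 2.6% higher among all genes with 1 symbol. The median difference of the pathway was 0.22. SH2B3, the adaptor LNK that restrains KIT signalling in mice, rose by 0.64 (adjusted p = 0.0104) and GRB2, an adaptor that links receptors to Ras, by 0.47 (adjusted p = 0.0328). PTPN6, the phosphatase SHP-1, differed by 0.88 without a call (adjusted p = 0.0644). KDR, the main receptor for vascular endothelial growth factor and, like KIT, a target of toceranib, rose by 0.86 (adjusted p = 0.0268) and was the called member among 7 tested target receptors other than KIT. The covariate left SH2B3 at 0.63, GRB2 at 0.49 and KDR at 0.795, none called.

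Among 18 transcription factors of the mast cell lineage other than GATA2, 2 rose and 0 fell, beside 2.6% higher among all genes with 1 symbol. Their median difference was 0.25. IKZF1, encoding Ikaros, rose by 0.48 (adjusted p = 0.0225) and TAL1, a partner of GATA factors, by 0.61 (adjusted p = 0.0375). SPI1, encoding PU.1, differed by 0.97 and GATA1 by 0.36, neither called (adjusted p = 0.0566 and 0.124). Adding the median correlation as a covariate left IKZF1 at 0.57 and TAL1 at 0.80, neither called.

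A wider list of surface and other mast cell genes had 7 of 25 tested members higher and 0 lower, with a median difference of 0.26, HPGD among them. VWA5A, a gene with a von Willebrand factor A domain, lay at 1.79, 2.08 and 2.43 in the low MCTs, at 2.21, 2.58 and 3.59 in the intermediate MCTs and at 2.08, 5.29 and 5.87 in the high MCTs. The high MCTs formed no even group for this gene, since 7 lay above 5 and M17, at 2.08, lay among the low MCTs. The difference was 2.52 (SE 0.352, n = 11 per group, adjusted p = 0.000734).

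CD63, a tetraspanin of the granule membrane, rose by 1.68 and CSF2RB, the shared β chain of cytokine receptors such as that for IL-3, by 1.20 (adjusted p = 0.0188 and 0.0279). IL1RL1, the receptor for IL-33, lay at 1.31, 1.55 and 1.77 in the low MCTs, all of them at or below the median of the table, and at 1.46, 2.21 and 4.41 in the high MCTs. Its difference was 1.07 (adjusted p = 0.0396). Outside the high MCTs only M8 and NM10 exceeded that median, so IL1RL1 reached the level required for testing through the high MCTs. Its call is therefore no independent support, neither alone nor within the count of the wider list above. SLC45A3, a membrane transporter gene, rose by 1.00 (adjusted p = 0.0251). Under the same covariate VWA5A differed by 2.44, CD63 by 1.27, CSF2RB by 1.24, IL1RL1 by 1.08 and SLC45A3 by 1.18, none called.

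Of the rest of the 15 genes, TAGLN2, an actin-binding protein, lay at 3.58, 4.42 and 5.62 in the low and at 5.34, 6.03 and 6.72 in the high MCTs, a difference of 1.52 (SE 0.23, n = 11 per group, adjusted p = 0.00138). NM7 and NM8 were the low MCTs that reached the high ones. RAC2, a small GTPase of blood cells, rose by 1.796, COTL1, which binds filamentous actin, by 2.09 and LCP1, the actin bundler L-plastin, by 1.02 (adjusted p = 0.00586, 0.00537 and 0.00689). SDF4, a calcium-binding protein of the Golgi lumen, rose by 1.67 and TALDO1, transaldolase of the pentose phosphate pathway, by 1.05 (adjusted p = 0.00546 and 0.00556). None of the 6 separated the groups fully. With the covariate TAGLN2, RAC2, COTL1, LCP1, SDF4 and TALDO1 differed by 1.35, 1.93, 1.85, 1.05, 1.39 and 0.74, none called.

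Antigen presentation genes had 5 of 17 tested members higher and 0 lower, with a median difference of 0.52. DLA-64, a canine class I gene, lay at 2.59, 3.14 and 3.83 in the low and at 2.82, 4.52 and 6.12 in the high MCTs, a difference of 1.38 (SE 0.251, n = 11 per group, adjusted p = 0.00846). M17 alone of the high MCTs lay within the low range. B2M, the class I light chain, rose by 1.59, DLA88, another class I gene, by 1.77, CD74, the class II invariant chain, by 2.22 and DLA-DRA, the class II α chain, by 2.76 (adjusted p = 0.0105, 0.0213, 0.0172 and 0.0193). For DLA-DRA the low MCTs ran from 1.41 to 5.21 and the high MCTs from 2.62 to 8.05, so that 6 of 11 high MCTs exceeded every low MCT. DLA-64, B2M, DLA88, CD74 and DLA-DRA differed by 1.24, 0.995, 1.03, 1.40 and 1.74 with the covariate, none called. DLA genes resemble each other in sequence, so their clusters may share signal.

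**Figure D3:**
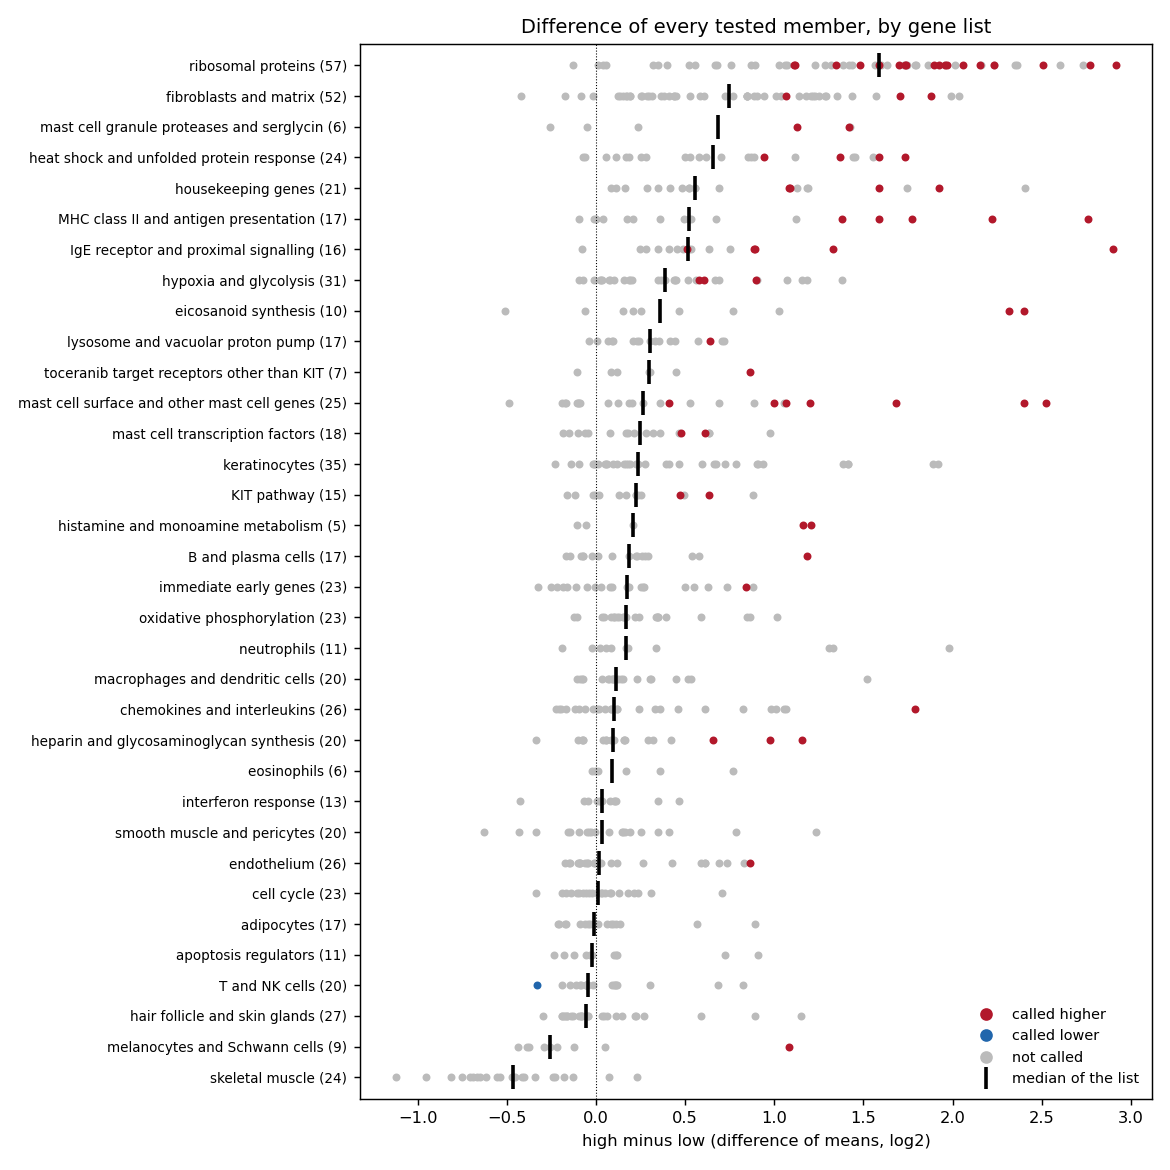
Difference of means, high minus low, on the log2 scale for every tested member of 34 gene lists (number tested in parentheses), ordered by the list's median (black bar); red and blue points were called at an adjusted p under 0.05. Ribosomal protein genes have the highest median, 1.59, and skeletal muscle genes the lowest, -0.47.

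The list with the highest median was that of ribosomal proteins, with 18 of 57 tested members higher, 0 lower, 56 positive differences and a median of 1.59. RPL34, RPL19, RPL8, RPL37, RPS3 and RPS19 rose by 1.97, 1.92, 1.70, 2.77, 2.06 and 2.23 (adjusted p between 0.0134 and 0.0274). Many ribosomal protein genes have near-identical copies, and the clusters of RPL34 and RPL37 each share all their values with another cluster, so their values are uncertain as values of single genes. The mean of the list lay at 2.90, 3.87 and 6.74 in the low MCTs and at 4.87, 5.86 and 6.67 in the high MCTs. Of the low MCTs, NM1 at 6.74, NM8 at 6.19, NM5 at 5.51 and M6 at 4.95 lay above the lowest high MCT.

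Housekeeping genes moved with them, with positive differences in all 21 tested members, 4 called higher, 0 lower and a median of 0.56. Besides B2M, CHMP2A, of endosomal sorting, rose by 1.09, REEP5, of the endoplasmic reticulum, by 1.08 and ACTB, β-actin, by 1.92 (adjusted p = 0.0115, 0.0252 and 0.0252). The chaperone list had 4 of 24 members higher, namely HSPA8, HSP90AA1, PDIA4 and CALR by 1.59, 1.73, 0.94 and 1.37, 0 lower and a median of 0.66 (adjusted p between 0.0371 and 0.0441). Of 31 hypoxia and glycolysis genes 3 rose and 0 fell, with a median of 0.39, beside 2.6% higher among all genes with 1 symbol. The 3 were ENO2, PFKP and ENO1, by 0.90, 0.61 and 0.58 (adjusted p = 0.00537, 0.0371 and 0.043).

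These medians also moved with the array measure. With the median correlation as a covariate the median difference of the ribosomal proteins went from 1.59 to 0.34 and that of the housekeeping genes from 0.56 to 0.28. That of the IgE receptor list went from 0.52 to 0.44, of the proteases and serglycin from 0.68 to 0.54 and of the eicosanoid genes from 0.36 to 0.41. That of the histamine list went from 0.21 to 0.09 and of the KIT pathway from 0.22 to 0.13. No member of any list was called in that fit. The part of array quality in the differences between high and low MCTs was not tested beyond these values.

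**Figure D4:**
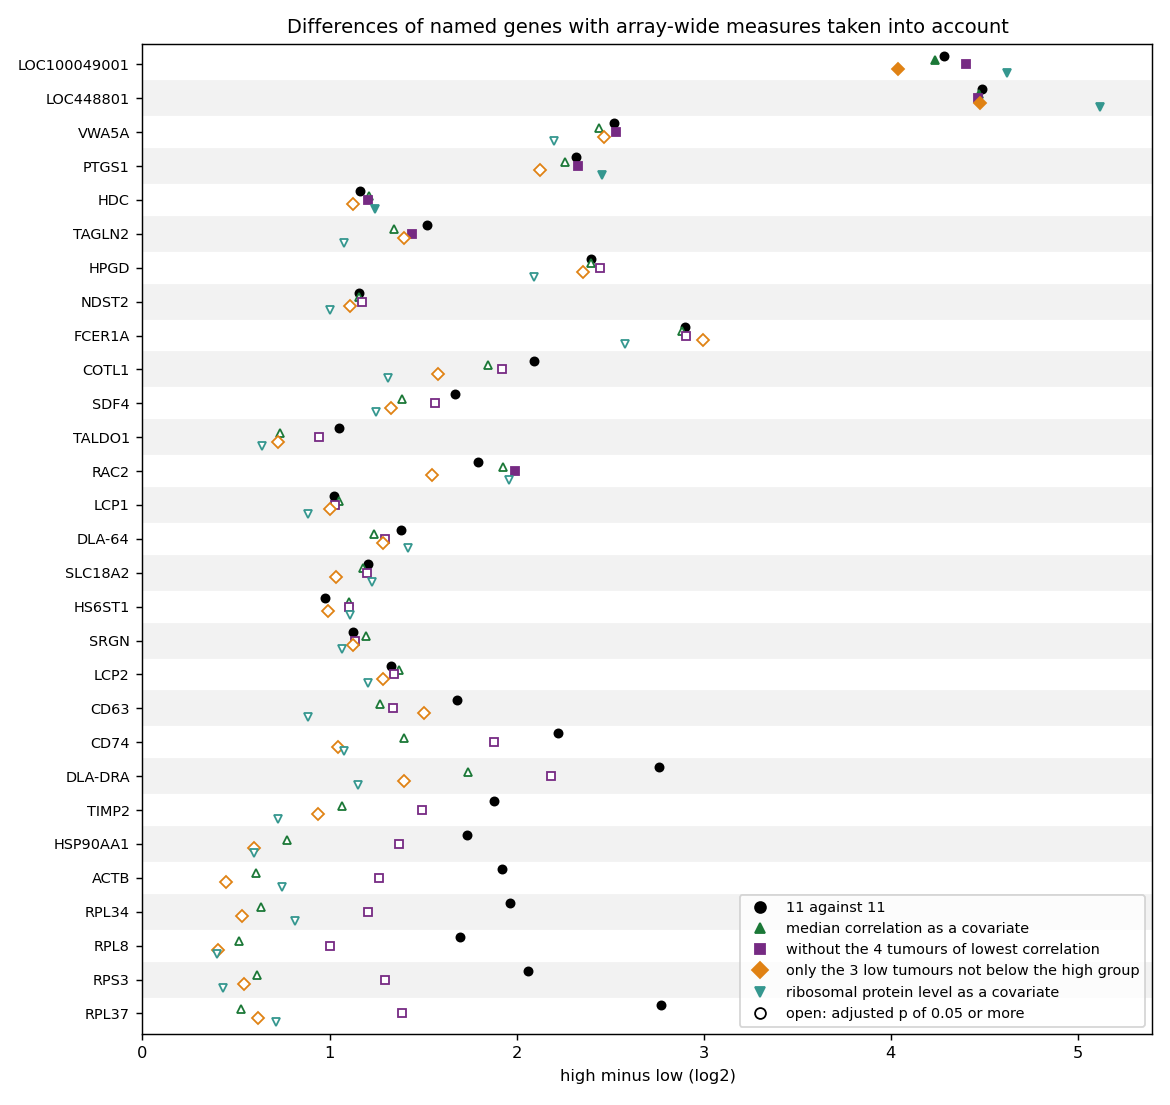
Difference, high minus low on the log2 scale, of the 15 genes named by rule and 14 further genes in 5 fits (symbols); filled symbols have an adjusted p under 0.05. The 2 unnamed loci stay between 4.04 and 5.12 in all fits, whereas RPL37 goes from 2.77 to between 0.53 and 1.39.

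Other cell types of the skin varied among the tumours of both groups. Keratinocyte genes, which mark epidermis in the biopsy, had 0 of 35 tested members called, a median difference of 0.24, and 29 positive differences. Their median difference was -0.169 with 6 positive differences when the median correlation was a covariate, and -0.351 with 3 against the low MCTs M3, NM1 and NM5. Their mean level ran from 2.19 to 4.63 in the low MCTs and from 2.01 to 4.69 in the high MCTs. KRT1, KRT5 and KRT10 differed by 1.92, 1.42 and 1.89 (adjusted p = 0.289, 0.302 and 0.302) and, with the covariate, by -0.40, -0.34 and -0.38. The low MCTs NM1 and NM5 had high levels, at 4.63 and 3.75, as had the high MCTs NM14, NM16, NM12 and NM9, at 4.69, 4.10, 4.08 and 4.00. With a keratinocyte score as a covariate 167 clusters were called higher and 3 lower.

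Fibroblast and matrix genes had 3 of 52 tested members higher and 0 lower, beside 2.6% higher among all genes with 1 symbol. They had 48 positive differences and a median of 0.75. Their mean levels ran from 2.59 to 4.17 in the low and from 2.78 to 5.65 in the high MCTs. TIMP2, a metalloproteinase inhibitor, rose by 1.88, S100A4, a calcium-binding protein also made by leukocytes, by 1.71 and C1R, a complement protease, by 1.07 (adjusted p = 0.0206, 0.0471 and 0.043). COL1A1, the main collagen gene of dermis, differed by 1.28 without a call (adjusted p = 0.235) and by -0.13 with the median correlation as a covariate. The median of the list was 0.12 in that fit.

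Skeletal muscle genes, of the muscle beneath the skin, had 0 of 24 members called and a median of -0.47, with 22 negative differences. The median was -1.13 with the covariate, -0.922 without M1, M15, NM3 and NM7, and -0.68 against M3, NM1 and NM5. The level was high in the low MCTs M6, NM1 and NM4, at 7.27, 5.33 and 3.55, and in the high MCT NM15, at 6.79, and lay between 1.98 and 2.40 in the others of the 2 groups. MYH2, a fast muscle myosin, differed by -1.12 (adjusted p = 0.426). The lists of hair follicle and skin glands, smooth muscle, adipocytes, eosinophils, neutrophils, macrophages and dendritic cells, interferon response, oxidative phosphorylation, cell cycle and apoptosis regulators had no member called either, out of between 6 and 27 tested in each. The medians of these lists ran from -0.05 to 0.17, and that of the cell cycle was 0.01 over 23 members. With the covariate the medians of hair follicle and skin glands, adipocytes and oxidative phosphorylation were -0.368, -0.227 and -0.109, the last turned from 0.171.

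In several other lists a single member was called, to be read against the 2.87% of all clusters called higher. JCHAIN, the joining chain of plasma cell immunoglobulins, rose by 1.18 (adjusted p = 0.0479), 1 of 17 B and plasma cell genes. CCL2, a monocyte chemokine, rose by 1.79 (adjusted p = 0.0499), 1 of 26 chemokines and interleukins. PMP22, a myelin and junction protein, rose by 1.08 (adjusted p = 0.0316), 1 of 9 genes of melanocytes and Schwann cells, of which 7 had negative differences. KLF6, an early response transcription factor, rose by 0.84 (adjusted p = 0.0371), 1 of 23 immediate early genes. KDR, above, was the 1 called member of 26 endothelial genes. With the covariate JCHAIN, CCL2, PMP22 and KLF6 differed by 1.19, 1.31, 0.42 and 0.31, none called.

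**Figure D5:**
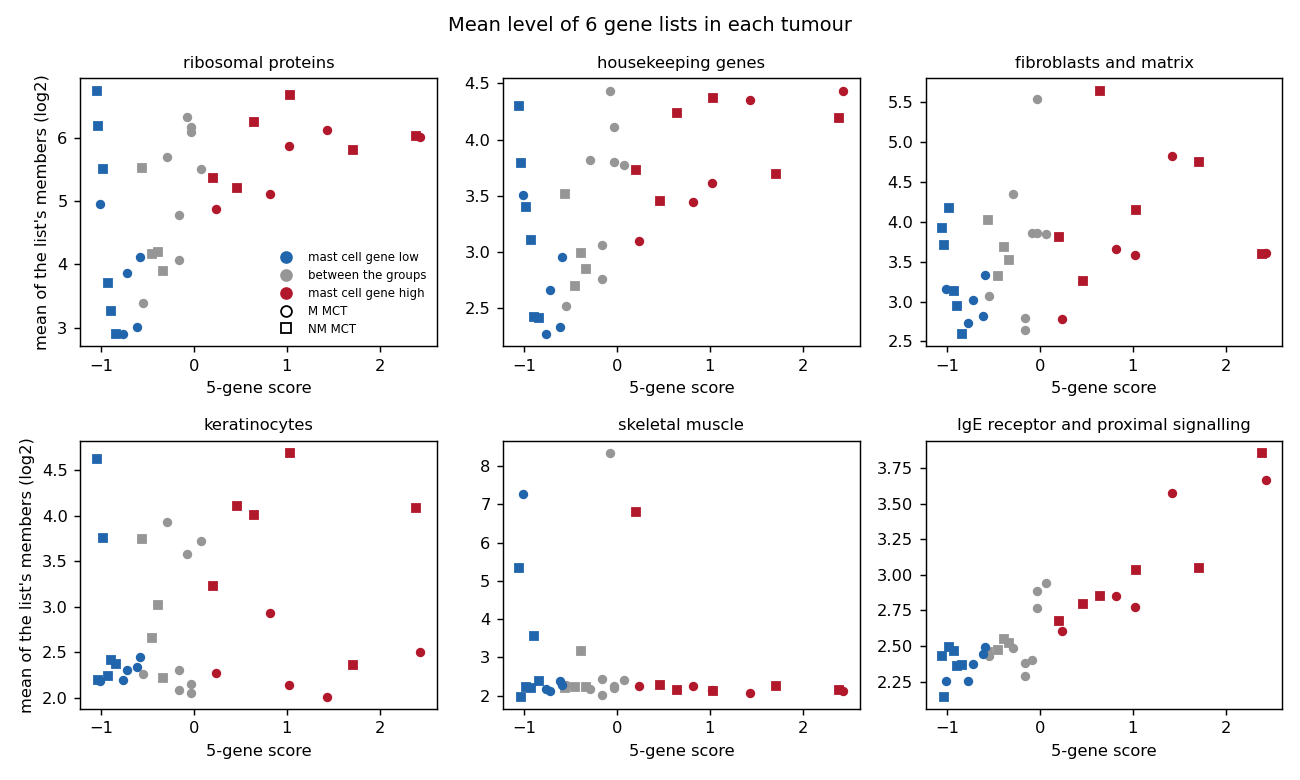
Mean log2 level of 6 gene lists (vertical axes) against the 5-gene score (horizontal axes) in the 34 MCTs; circles are M and squares NM MCTs, coloured by group. Ribosomal protein levels run from 2.90 to 6.74 in the low and from 4.87 to 6.67 in the high MCTs, and IgE receptor list levels from 2.15 to 2.49 and from 2.61 to 3.85.

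Few genes were lower in the high MCTs. Of genes with 1 symbol that were called lower none differed by as much as 1 unit, and these 8 are named here after their values were seen, as the rule on size names none of them. PRF1, perforin of cytotoxic lymphocytes, lay at 2.02, 2.53 and 2.92 in the low and at 1.96, 2.16 and 2.28 in the high MCTs, a difference of -0.33 (SE 0.0818, n = 11 per group, adjusted p = 0.0286), and was the only one called among 20 T and NK cell genes. MIR329A and MIR371, microRNA precursors, fell by 0.86 and 0.41 (adjusted p = 0.026 and 0.0118). Of 92 microRNA precursors tested 1 rose and 2 fell, beside 2.6% higher and 0.0764% lower among all genes with 1 symbol.

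ST6GAL2, a sialyltransferase gene, DHODH, a pyrimidine synthesis enzyme, FAM184B, SIMC1 and ADAMTS16, a metalloproteinase gene, fell by 0.36, 0.33, 0.39, 0.22 and 0.26 (adjusted p = 0.0278, 0.0355, 0.0393, 0.0407 and 0.0499). In the high MCTs DHODH was at or below the median of the table in 9, MIR371 in 7, ADAMTS16 in 7, SIMC1 in 6 and MIR329A in 3 of 11 tumours. DHODH and ADAMTS16 reached the level required for testing only through the low MCTs, so their calls are no independent support. MIR371 differed by -0.24, MIR329A by -0.62 and PRF1 by -0.38 with the covariate, none called. The groups overlapped for each of the 8.

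No relation of mast cell gene level to metastatic status was detected in these tumours. The equal split of both groups gave p = 1 in a two-sided Fisher's exact test, and the 12 between held 8 M and 4 NM. M MCTs had a mean score of 0.056 ± 0.875 (SD, n = 18) and NM MCTs one of -0.0629 ± 1.05 (SD, n = 16), which differed by 0.119 (two-sided permutation test, p = 0.722). Whether the difference between high and low MCTs itself differed by status was tested as an interaction in limma. There 0 of 19241 clusters were called, with 667 at an unadjusted p under 0.05 and a smallest adjusted p of 0.999. LOC100049001 and LOC448801 differed by 3.81 and 3.70 in M and by 4.68 and 5.15 in NM MCTs (interaction p = 0.251 and 0.131 before adjustment). FCER1A differed by 2.57 in M and 3.17 in NM MCTs.

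Within 1 status the groups were small. Among 5 against 5 M MCTs 191 clusters were called higher and 11 lower, and among 6 against 6 NM MCTs 4 and 0. Of the genes named here, HDC, TAGLN2, COTL1, TIMP2, ENO2, RPL34, RPL19, RPS3 and RPS19 were called in M MCTs beside the 2 unnamed loci, and VWA5A and DLA-64 beside them in NM MCTs. By breed, Boxers gave 0 high, 1 intermediate and 3 low MCTs, Labrador Retrievers 3, 6 and 1, Golden Retrievers 2, 1 and 1, Staffordshire Bull Terriers 2, 0 and 0 and Cross-breeds 2, 1 and 3. These numbers are too small for a comparison of breeds, and with breed as a random block 549 clusters were called higher and 27 lower.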

How the data were processed

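Total RNA of FFPE biopsies was treated with heparinase, amplified, labelled and hybridised to canine gene arrays by the authors. The authors excluded outlier arrays and deposited log2 values of the others, quantile normalised and summarised per gene with the Robust Multichip Analysis algorithm. Affymetrix Expression Console 1.3 is listed as the software in the submitters' notes. The values were used as deposited, with normalisation repeated only as an alternative. A cluster was tested where 30% or more of the tumours of either status exceeded the table's median (19246 of 32391, of which 10691 have 1 symbol). A cluster could thus enter through the high or the low MCTs alone. The paper's filter instead asked for unique hybridisation targets and detection above background, and kept far fewer clusters. The shares called are taken here over the wider set, low signals included. High and low MCTs were compared with limma 3.58.1 (lmFit and eBayes) in R 4.3.3. Benjamini-Hochberg adjustment ran over all clusters tested, and the 5 scoring genes stayed in the fit but not in the counts. Permutation tests drew 100000 resamples. The limma fit was run on simulated data of independent noise without array-wide differences, which does not bear on the array measure above. Of clusters, 1528 tested ones share all values with another.

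The named genes are, per direction, the 15 with the smallest p among genes with 1 symbol, called, with a difference of at least 1, plus up to 6 members per list with the smallest p and members of the mast cell lists. For genes with more than 1 cluster, that with the highest mean was taken. The tumours, lists and tests were chosen with earlier results of these data known. The alternatives were other level filters, variance models, covariates, blocks, group sizes, score genes, repeated normalisation and left-out tumours. Precision rests on how many arrays each group has, and p-values measure the spread between single tumours, not between repeat biopsies. Age and sex, which the labels used here do not give, were not analysed, and the array strip, on which samples were hybridised in groups, is not given in the sources used here. Gene order comes from the dog assembly UU_Cfam_GSD, which is not that of the array, so no coordinates are given.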

Additional observations from a re-analysis of the deposited data

How the results depend on the processing

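Counts are given as clusters higher and lower in the high MCTs, beside 552 and 30. They were 1313 and 440 with array weights, 167 and 3 with the keratinocyte score and 3 and 0 with the median correlation as a covariate, and 209 were lower after repeated quantile normalisation. Groups of 8 gave 215 and 6, groups of 17 gave 1049 and 382, and the score as a continuous term over 34 MCTs 1248 and 77. A score without CPA3 gave 200 and 4, without KIT 1072 and 162, and the counts within M MCTs were 191 and 11 and within NM MCTs 4 and 0. Alternatives chosen after seeing the data gave 10 and 0 without the 4 MCTs of lowest median correlation, 2 and 0 with only the 3 low MCTs not below the lowest high MCT in that measure, and 6 and 1 with the ribosomal protein level as a covariate. The other level filters, variance models, status and breed terms and scores without CMA1, MS4A2 or GATA2 kept both counts within 1.5 times. So did an unpaired t-test with Benjamini-Hochberg adjustment (374 and 24), whereas the paper adjusted its t-test p-values by permutation. Leaving out 1 tumour gave 227 to 1129 higher and 4 to 201 lower. The higher count moved by over 1.5 times without NM1 (1129), NM8 (1017), M1 (227), M15 (240), NM4 (262), NM3 (285), M2 (314), NM14 (325), NM9 (344), M9 (358) or M7 (361). No paired analysis was possible because the replicate numbers that M and NM MCTs share belong to different dogs; a fit with the number as a replicate block gave 549 and 25. Leaving single tumours aside, the 69 called genes named in the report kept their direction in each alternative that tested them. Without 1 tumour, 37 of them kept their call in all 22 refits, the 15 of the rule included, and 32 lost it in at least 1, most of them without M1 (30), M15 (30), NM4 (29) or NM3 (23). IL1RL1, C1R, S100A4, JCHAIN, CCL2, KLF6, ENO1, HSPA8, HSP90AA1, PDIA4, CALR, FAM184B, SIMC1 and ADAMTS16 kept it in 4 to 10 of the 22. Of the 69, 7 were called without the 4 MCTs of lowest correlation and 4 with the ribosomal level as a covariate. The percentage of clusters above the median of the table differed by 0.468 (permutation p = 0.649), a measure that quantile normalisation leaves little room to differ. With the median correlation as a covariate KRT1, KRT5, KRT10 and COL1A1 turned to -0.40, -0.34, -0.38 and -0.13. With only those 3 low MCTs they turned to -0.93, -0.79, -0.99 and -0.20, and KRT10 to -0.039 with the ribosomal level as a covariate. The causes were not tested. Status, score and interaction results stayed uncalled in their alternatives. Many low MCTs had signals near the median of the table, which limits fold changes of weakly expressed genes.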
